A study of Saccharomyces cerevisiae W303 with 3 samples.

Results

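The SPS amino acid sensor pathway of budding yeast was followed through 8 genes, SSY1, PTR3, SSY5, STP1, STP2, ASI1, ASI2 and ASI3, chosen by name and by open reading frame out of 6252 genes measured. Each gene had 1 probe, printed at 2 spots per array. RNA came from 3 independent continuous cultures of the W303 strain of Saccharomyces cerevisiae, sampled after 240 generations and after 40 generations of growth at 30 °C. Both time points of a culture were cohybridized to 2 arrays with the Cy3 and Cy5 dyes exchanged, which gave 6 arrays in all. The strain is a laboratory wild type that carries auxotrophic alleles of LEU2, TRP1, URA3, ADE2 and HIS3 and a mutant allele of CAN1, which encodes the arginine permease, and these alleles are shared by both time points. The medium, also the same throughout, was a yeast nitrogen base with glycerol as the main carbon source, a little glucose and yeast extract, supplements for the auxotrophies, and the antibiotics ampicillin and streptomycin. The populations at 240 generations may carry acquired mutations that differ between the cultures, which the arrays do not measure, so that differences of genotype and of time cannot be told apart.

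Yeast senses amino acids outside the cell with the SPS sensor of the plasma membrane, named after Ssy1, Ptr3 and Ssy5. Ssy1 resembles an amino acid permease but acts as a receptor, Ptr3 is a scaffold, and Ssy5 is an endoprotease held inactive by its own prodomain. When amino acids bind, the prodomain is phosphorylated and degraded, and the released protease cuts an inhibitory segment from the transcription factors Stp1 and Stp2. These then enter the nucleus and activate genes of amino acid permeases. Asi1, Asi2 and Asi3 form a ubiquitin ligase of the inner nuclear membrane that removes uncut Stp1 and Stp2 and so keeps the pathway silent without amino acids. Most steps of the pathway are known to act on proteins, whereas the arrays measured only RNA.

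All 8 genes were above background at 240 generations and at 40 generations on all 6 arrays, and none of their spots had saturated pixels or was flagged as not found. A gene counted as above background when its excess over the local background, in SDs of that background and averaged over its 2 spots, was more than 2. A bright spot can thus make up for a dim one. The test was met by 85.3% to 89.4% of all genes on an array at 240 generations, against 84.2% to 91.8% at 40 generations. Across the genes tested, the dye-swapped arrays of a culture gave Pearson's r of 0.95 to 0.96, whereas Replicates 2 and 3 correlated at 0.88, and Replicate 1 correlated with them at 0.71 and 0.66. Replicate 1 therefore stood apart from the other 2 cultures. Markers of mating type went against the methods, which give the strain as MATa. STE3, the receptor gene of α cells, was above background on 6 arrays at 240 generations and on 6 arrays at 40 generations, as were the α pheromone genes MF(ALPHA)1 and MF(ALPHA)2. The a-cell genes were above background on 0 to 4 arrays, MFA1 on 1 at 240 generations and on 2 at 40 generations, STE2 on 2 and on 4, BAR1 on 0 and on 3, and MFA2 on 0 at both time points. The α-cell genes were thus detected in all 3 cultures, and the part of this in the values below was not tested.

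SSY5, the protease gene, was lower, and STP2, a transcription factor gene, was higher at 240 generations than at 40 generations, while the other 6 genes did not pass the test. The values are log2 ratios of 240 over 40 generations, averaged over the 2 arrays of a culture, and a gene passed at an adjusted p under 0.05 (limma against a ratio of 0 over the 3 cultures, two-sided, Benjamini-Hochberg adjustment over the 5504 genes tested). Among all genes tested, 27.7% passed, 14.0% higher and 13.7% lower, so that a count of 2 among 8 genes was close to the background. None of the 8 met the study's own criteria on the size, p and spread of a ratio (an absolute mean of at least 0.9 among them), which 5.74% of all genes met. SSY5 was past the size criterion with the authors' log2 ratios, at -1.04, and with plain subtraction of the background, at -0.92, but its SD over the squared mean was 0.59 and 0.73 there, above the limit of 0.4. The median log2 ratio of the 8 genes was 0.01, against -0.01 over all genes tested. Their means ran from -0.72 for SSY5 to 0.48 for STP2, and both directions were present among the genes of the sensor and among those of the transcription factors. RNA was taken from whole populations, so that a change in all cells and a change in the share of cells with the transcript cannot be told apart.

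**Figure D1:**
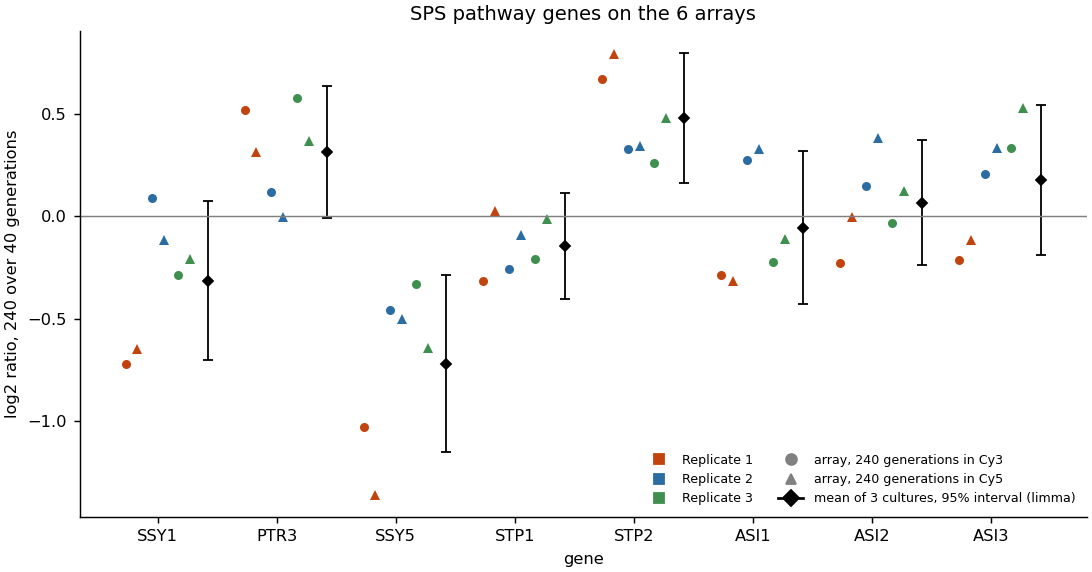
Log2 ratio of 240 over 40 generations (vertical axis) of the 8 pathway genes on each of the 6 arrays. Colors stand for the 3 cultures, circles and triangles for arrays with the 240-generation RNA in Cy3 and in Cy5, and black diamonds with bars for the mean and 95% interval of limma. SSY5 was below 0 and STP2 above 0 on all 6 arrays.

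SSY1, the sensor gene (YDR160W, chromosome IV, positions 776163 to 778721 in the R64 reference annotation), had log2 ratios of -0.68, -0.01 and -0.25 in Replicates 1, 2 and 3. Its normalized log2 intensities, made comparable between arrays, were 8.32, 9.65 and 8.41 at 240 generations, against 9.0, 9.67 and 8.66 at 40 generations. The levels overlapped between the time points, and the mean log2 ratio of -0.31 ± 0.34 (SD, n = 3) did not pass (adjusted p = 0.18 with limma, 95% interval -0.70 to 0.07). The lowest ratio was that of Replicate 1, and in Replicate 2 the 2 arrays had opposite signs, 0.09 and -0.11. The 2 spots of SSY1 differed in brightness on every array, by 1.53-fold to 11.6-fold, and with only the brighter spot on each array the mean was -0.43 (adjusted p = 0.13). The level of SSY1 thus depended on the spot more than that of the genes below, other than STP2.

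PTR3, the scaffold gene (YFR029W, chromosome VI, positions 210937 to 212973), had log2 ratios of 0.42, 0.06 and 0.47 in Replicates 1, 2 and 3. Its log2 intensities were 11.68, 11.23 and 11.66 at 240 generations, against 11.26, 11.17 and 11.19 at 40 generations. The 3 cultures lay within a narrow range at 40 generations (SD 0.05) and spread further at 240 generations (SD 0.26), where Replicate 2 was the lowest. The mean of 0.32 ± 0.23 (SD, n = 3) did not pass (adjusted p = 0.12 with limma, 95% interval -0.01 to 0.64). A rise of up to 1.56-fold therefore lay within the interval, as did no change.

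SSY5, the protease gene (YJL156C, chromosome X, positions 126853 to 128952), had log2 ratios of -1.19, -0.48 and -0.49 in Replicates 1, 2 and 3. Its log2 intensities were 7.98, 8.49 and 8.67 at 240 generations, against 9.17, 8.97 and 9.16 at 40 generations. These levels did not overlap, the highest at 240 generations being below the lowest at 40 generations, as was the case for 17.0% of all genes tested in the same direction. SSY5 was the only one of the 8 genes whose levels did not overlap, against 32.4% of all genes tested in either direction. The gene fell, with a mean log2 ratio of -0.72 ± 0.41 (SD, n = 3, adjusted p = 0.034 with limma, 95% interval -1.15 to -0.29), a level 0.61 times that at 40 generations. The ratio was negative on 6 of 6 arrays, from -1.36 to -0.33, and on both spots of each. Its size differed with the dye, averaging -0.61 with the 240-generation RNA in Cy3 and -0.83 with it in Cy5. The difference between the 2 arrays of a culture was 0.33, 0.04 and 0.31 (Cy3 minus Cy5) in Replicates 1, 2 and 3. The median absolute difference over all genes tested was 0.11 to 0.12. Of the genes tested, 7.41% had a lower mean. In Replicate 1 the spots of SSY5 were dim at 240 generations, only 86 to 135 above the local background. The median background of those channels was 58 in Cy3 and 40 in Cy5, so that this ratio rests on weak signals. The larger part of the change was that of Replicate 1, and without it the mean was -0.48 (adjusted p = 0.0082). That fit called more genes in general, 2492 of all genes against 1523 with all 3 cultures. The smaller p is therefore not particular to SSY5. SSY5 no longer passed without Replicate 2 (adjusted p = 0.097), with no filter on dim probes (adjusted p = 0.051) or in a fit that ignored the pairing on the array (adjusted p = 0.074).

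**Figure D2:**
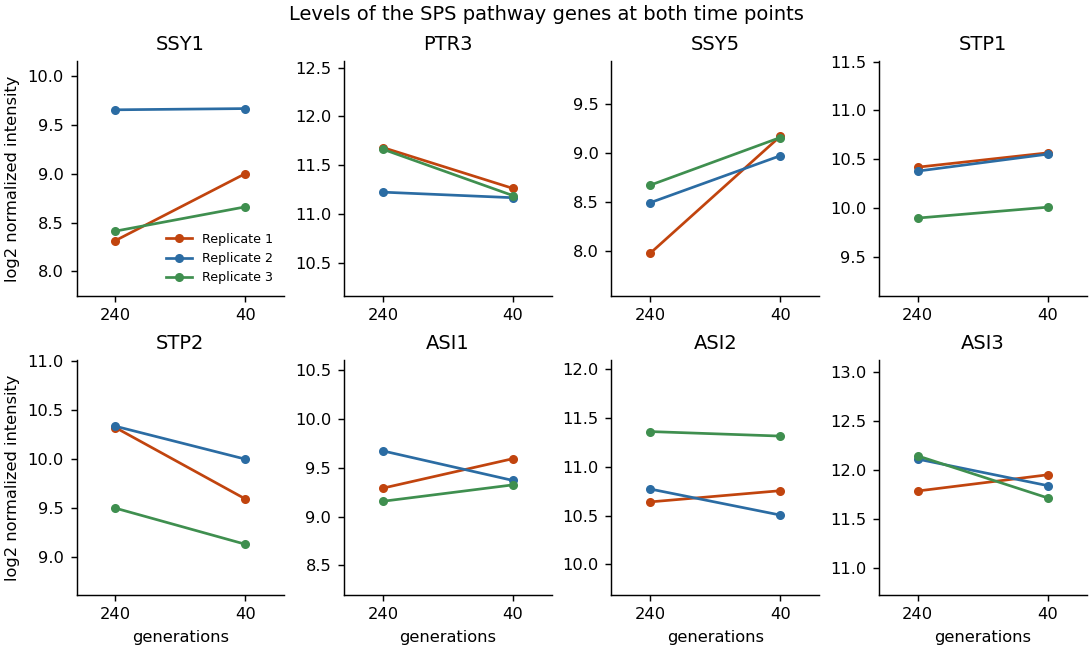
Normalized log2 intensity (vertical axis, each panel spanning the same range around its own mean) of the 8 pathway genes at 240 and at 40 generations (horizontal axis), with 1 line per culture. In SSY5 the 3 points at 240 generations, 7.98 to 8.67, lay below the 3 points at 40 generations, 8.97 to 9.17, and in STP2 each line was higher at 240 generations although the levels of the cultures overlapped.

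STP1 (YDR463W, chromosome IV, positions 1386816 to 1388375) encodes the factor that, besides its part in the induction of permease genes, was first linked to tRNA processing. It had log2 ratios of -0.15, -0.17 and -0.11 in Replicates 1, 2 and 3, with log2 intensities of 10.42, 10.38 and 9.90 at 240 generations, against 10.57, 10.55 and 10.01 at 40 generations. The mean of -0.14 ± 0.03 (SD, n = 3) did not pass (adjusted p = 0.335 with limma, 95% interval -0.40 to 0.12). The spread between cultures was the smallest of the 8 genes, but the 2 dye orientations differed by more than that spread. The arrays with the 240-generation RNA in Cy3 averaged -0.26, and those with it in Cy5 averaged -0.03. The difference between the 2 arrays of a culture was -0.34, -0.16 and -0.19 (Cy3 minus Cy5), against a median absolute difference of 0.11 to 0.12 over all genes tested. The even value of STP1 in the 3 cultures was therefore a mean of orientations that did not give the same size.

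STP2 (YHR006W, chromosome VIII, positions 117814 to 119439) encodes the homolog of Stp1 that is processed by the same protease. It had log2 ratios of 0.73, 0.34 and 0.37 in Replicates 1, 2 and 3, with log2 intensities of 10.32, 10.33 and 9.50 at 240 generations, against 9.59, 9.999 and 9.13 at 40 generations. Each culture was higher at 240 generations, but the levels of the cultures overlapped, since Replicate 3 was dimmer at both time points. STP2 rose, with a mean log2 ratio of 0.48 ± 0.22 (SD, n = 3, adjusted p = 0.043 with limma, 95% interval 0.16 to 0.80), or 1.39-fold. The ratio was positive on 6 of 6 arrays, from 0.26 to 0.79, and 13.1% of the genes tested had a higher mean. One of its 2 spots was dim on the arrays with the 240-generation RNA in Cy3, where the spots differed by 6.05-fold to 8.29-fold in brightness, and the dim spot gave -0.01 on the array of Replicate 3 while the bright spot gave 0.53. With only the brighter spot on each array the mean was 0.54 (adjusted p = 0.035). The call was lost in 6 of 19 other settings, among them median centring in place of the loess curve (adjusted p = 0.0502) and the omission of Replicate 2 (adjusted p = 0.16) or Replicate 3 (adjusted p = 0.11), so that it stood close to the threshold.

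The 2 transcription factor genes thus had values of different sign. STP1 minus STP2 was -0.88, -0.51 and -0.48 in Replicates 1, 2 and 3. Likewise, PTR3 minus SSY5 was 1.61, 0.54 and 0.96, and SSY1 minus SSY5 was 0.51, 0.47 and 0.24, so that within the sensor the protease gene was the lowest in each culture. With 3 cultures, an exact permutation test of the signs cannot give a two-sided p below 0.25, and these differences are given without a test.

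ASI1 (YMR119W, chromosome XIII, positions 505333 to 507207), one of the 2 ASI genes whose products carry a RING domain, had log2 ratios of -0.30, 0.30 and -0.17 in Replicates 1, 2 and 3. Its log2 intensities were 9.29, 9.67 and 9.16 at 240 generations, against 9.59, 9.37 and 9.32 at 40 generations. The mean was -0.06 ± 0.32 (SD, n = 3, adjusted p = 0.80 with limma, 95% interval -0.43 to 0.32), and its sign turned without Replicate 1 and without Replicate 3.

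ASI3 (YNL008C, chromosome XIV, positions 616211 to 618241), the other RING gene, had log2 ratios of -0.17, 0.27 and 0.43. Its log2 intensities were 11.79, 12.11 and 12.15 at 240 generations, against 11.95, 11.84 and 11.72 at 40 generations. The mean of 0.18 ± 0.31 (SD, n = 3, adjusted p = 0.39 with limma, 95% interval -0.19 to 0.55) did not pass. Without Replicate 1, ASI3 passed, with a mean of 0.35 (adjusted p = 0.032), so that its call depended on this culture. The fit without Replicate 1 called 2492 of all genes, against 1523 with all 3 cultures, so that such a gain is not particular to ASI3.

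ASI2 (YNL159C, chromosome XIV, positions 338478 to 339347), which encodes the partner without a RING domain, had log2 ratios of -0.11, 0.27 and 0.05 in Replicates 1, 2 and 3. Its log2 intensities were 10.64, 10.77 and 11.36 at 240 generations, against 10.75, 10.50 and 11.31 at 40 generations. The mean was 0.07 ± 0.19 (SD, n = 3, adjusted p = 0.71 with limma, 95% interval -0.24 to 0.37). It was -0.031 with median centring and -0.037 on the arrays with the 240-generation RNA in Cy3, so that it has no settled sign. The size measured for STP2, 0.48, lay within the interval of ASI3 and outside those of ASI1 and ASI2.

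The ratios of ASI1, ASI2 and ASI3 were below 0 in Replicate 1 and above 0 in Replicate 2, and in Replicate 3 they had different signs. Single cultures were not tested. SSY1, PTR3, SSY5, STP1 and STP2 each kept 1 sign in the 3 cultures. This gives 5 of 8 genes, or 62.5%, with the same sign in all cultures, near the 63.9% of all genes tested.

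**Figure D3:**
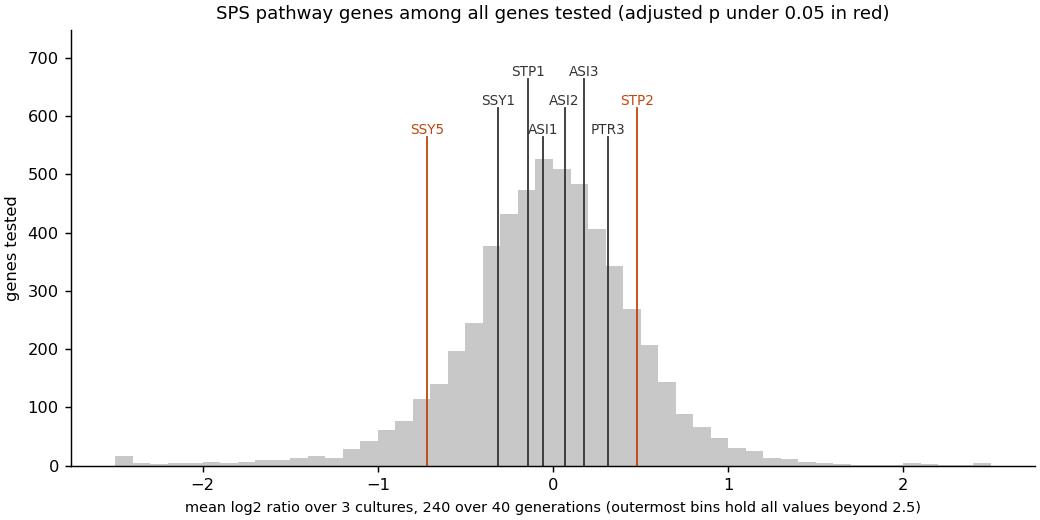
Distribution of the mean log2 ratio of 240 over 40 generations (horizontal axis) over the 5504 genes tested (vertical axis, number of genes), with the 8 pathway genes as vertical lines. SSY5, at -0.72, and STP2, at 0.48, are in red, and the other 6 genes lie between -0.31 and 0.32, while the middle 50% of all genes tested spans -0.30 to 0.27.

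The value of Replicate 1 departed from the mean of Replicates 2 and 3 by -0.71 in SSY5, -0.55 in SSY1, -0.52 in ASI3, -0.37 in ASI1 and -0.27 in ASI2, and by 0.38 in STP2 and 0.15 in PTR3. For STP1 the departure was -0.0040. Across all genes the departure of a culture from the other 2 was related to gene length, negatively in Replicate 1 (Spearman's rho -0.37) and positively in Replicate 3 (0.43), with Replicate 2 at 0.09 (5347 genes, which share the arrays and are not independent). Gene length is that of the annotated gene, with any introns included. Among genes of 2000 to 3000 bases, to which SSY1, PTR3, SSY5 and ASI3 belong, the median departure of Replicate 1 was -0.17. It was -0.08 among genes of 1000 to 2000 bases, which include STP1, STP2 and ASI1, and 0.20 among genes under 1000 bases, which include ASI2. SSY5, SSY1 and the 3 ASI genes thus lay below the median of genes of like length, and PTR3, STP1 and STP2 lay above it. When the trend with length was removed in each culture, SSY5 had a mean of -0.69 (adjusted p = 0.020) and STP2 a mean of 0.48 (adjusted p = 0.0499), and both still passed.

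**Figure D4:**
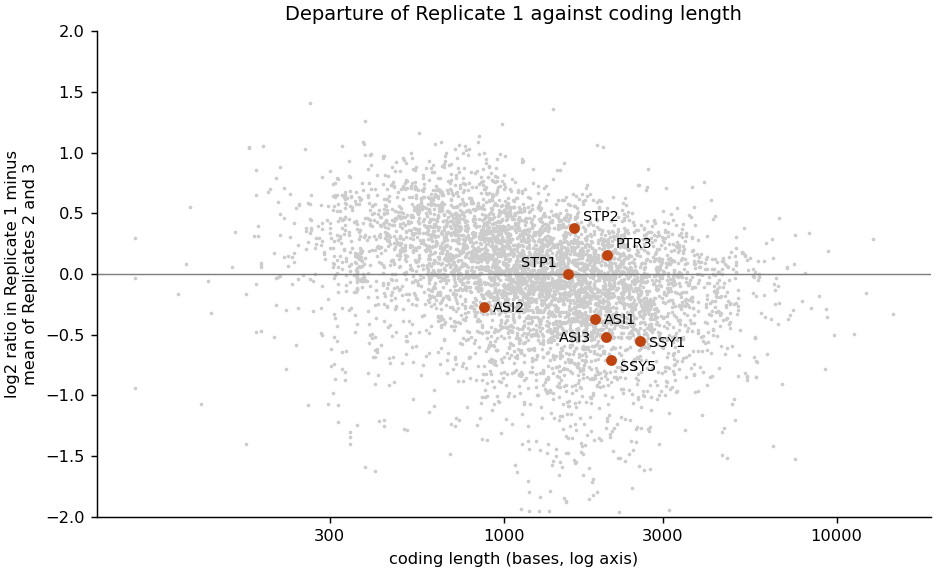
Log2 ratio in Replicate 1 minus the mean of Replicates 2 and 3 (vertical axis) against gene length in bases (horizontal log axis) for 5347 genes in gray, with the 8 pathway genes in red. The axis is labeled coding length, but the lengths are those of the annotated genes with any introns included. Of all genes, 12 lie beyond the vertical range. SSY5, SSY1, ASI1, ASI2 and ASI3 lie below the median of genes of like length, and STP2 and PTR3 lie above the zero line.

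Lists of 21 related genes were also read. They hold partners of the pathway, homologs of the STP factors, other ubiquitin ligases and conjugating enzymes, so that not all are steps of the signal. Of these, 4 were higher, 2 were lower and 15 did not pass, with a median log2 ratio of 0.04. Over all genes tested, 14.0% were higher and 13.7% were lower, so that the count of these related genes called was close to the background. Among 10 genes of the casein kinases that phosphorylate the Ssy5 prodomain, the SCF ubiquitin ligase that marks it for degradation and the phosphatase PP2A, 1 was higher and 1 was lower. SKP1, a core subunit of SCF, had 0.57 ± 0.20 (SD, n = 3, adjusted p = 0.026 with limma), and PPH22, a catalytic subunit of PP2A, had -0.75 ± 0.50 (adjusted p = 0.042). GRR1, which encodes the F-box subunit that recognizes the prodomain, had -0.39 ± 0.14 and did not pass (adjusted p = 0.054), nor did the kinase genes YCK1 (0.06 ± 0.15, adjusted p = 0.74) and YCK2 (-0.32 ± 0.05, adjusted p = 0.074). RTS1, the PP2A subunit that opposes the kinases, had values of -0.59, 0.41 and 0.30 in Replicates 1, 2 and 3, another gene that was lower in Replicate 1 alone.

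DAL81, whose product acts with Stp1 and Stp2 at the permease promoters, rose along with STP2 by a similar amount, 0.49 ± 0.24 (SD, n = 3, adjusted p = 0.046 with limma). SHR3, which encodes the chaperone that permeases and Ssy1 need to leave the endoplasmic reticulum, had 0.95, 0.38 and -0.07 in the 3 cultures and did not pass (adjusted p = 0.17). The homologs of the STP factors moved apart. STP4 had 1.38, 1.43 and 1.14 in Replicates 1, 2 and 3, a mean of 1.32 ± 0.16 (adjusted p = 0.0031), and STP3 had -1.07, -0.49 and -0.68, a mean of -0.75 ± 0.29 (adjusted p = 0.019). The change of STP4 was thus larger than that of any of the 8 pathway genes. A list of 7 genes held other ubiquitin ligases of the endoplasmic reticulum and nuclear envelope, together with conjugating enzymes. Of these, the conjugating enzyme gene UBC6 was higher (0.46 ± 0.13, adjusted p = 0.035), none was lower and 6 did not pass, with a median of 0.01.

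Of the 9 permease genes that the pathway is known to activate, 6 were lower at 240 generations, none was higher and 3 did not pass. The median log2 ratio of the 9 genes was -2.26. Of all genes tested, 13.7% were lower. BAP3, for branched-chain amino acids, had -3.99, -4.38 and -4.07 in Replicates 1, 2 and 3, and AGP1, a broad-range permease with saturated pixels in 1 spot reading, had -2.62, -4.15 and -3.23. The peptide permease gene PTR2 had -0.82, 0.64 and 1.45 and did not pass (adjusted p = 0.46 with limma), nor did DIP5 (adjusted p = 0.92) or BAP2 (adjusted p = 0.21). The 6 permease genes that fell are among those that the study singled out on these samples, so that their count is not independent evidence of a direction. The lowest mean of a pathway gene, -0.72 for SSY5, was thus smaller in size than the mean of each of those 6, which ran from -4.15 to -2.12. It was larger in size than the means of the 3 permease genes that did not pass, -0.45 for BAP2, -0.03 for DIP5 and 0.42 for PTR2. TAT1, a permease of branched-chain and aromatic amino acids, was above background on only 3 of 6 arrays at 240 generations, so that its mean of -2.39 rests in part on signals near background.

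**Figure D5:**
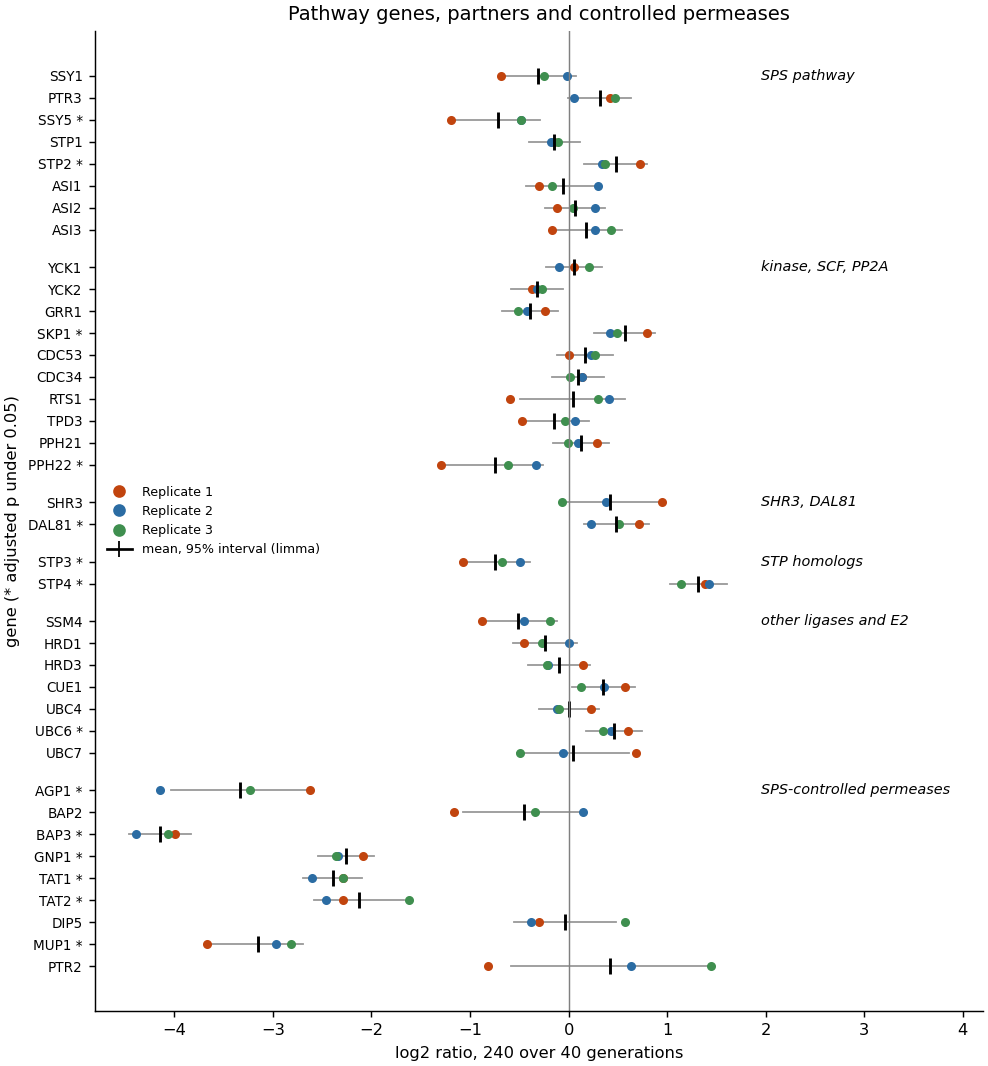
Log2 ratio of 240 over 40 generations (horizontal axis) of the 8 pathway genes, 21 partner and related genes and 9 controlled permease genes (vertical axis). Each culture has 1 point, a black mark gives the mean, and a gray line, hidden in part by the points, gives the 95% interval of limma. Stars mark genes with an adjusted p under 0.05. The lowest point of a pathway gene is SSY5 in Replicate 1, at -1.19, whereas BAP3, AGP1, MUP1, TAT1, GNP1 and TAT2 lie at -1.62 or below in every culture.

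The genes whose 3 ratios were most like those of SSY5, by Euclidean distance over the 3 cultures, were SHC1 (distance 0.09), STV1 (0.09) and ALR2 (0.11). Those most like STP2 were GUS1, RTT103 and RAD59 (distance 0.05 each). These distances rest on only 3 values per gene and are given as a description.

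No other gene of the reference annotation overlaps any of the 8 pathway genes. Overlaps and neighbors were sought in that annotation only, so that the 499 measured genes without an entry there could not be found. The genes beside SSY5 on chromosome X did not pass: FBP26 had -0.40 ± 0.34 (SD, n = 3, adjusted p = 0.10 with limma) and FAR1 had 0.33 ± 0.76 (adjusted p = 0.40). The measured neighbor of STP2, ERG11, had -0.27 ± 0.21 and did not pass either (adjusted p = 0.16). In all, 4 of the 13 neighbors tested passed and 9 did not, against 27.7% of all genes that passed. The 4 stood beside pathway genes that did not pass, MET10 next to PTR3 (-0.999 ± 0.06, adjusted p = 0.0048), ADE17 next to ASI1 (-0.97 ± 0.33, adjusted p = 0.011), YGP1 next to ASI2 (-1.18 ± 0.28, adjusted p = 0.0059) and IDP3 next to ASI3 (0.72 ± 0.36, adjusted p = 0.027). The neighbors were named after their values were seen.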

How the data were processed

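The authors copied total RNA of both time points into cRNA labeled with Cy3 or Cy5. They hybridized this cRNA to Agilent yeast arrays and read the images with GenePix Pro. The deposited array files hold raw pixel intensity values of each spot and of the background around it. They also give a flag and the percent of pixels that were saturated, as deposited. A further deposited table, identical but for rounding to the series values, holds log2 ratios that the authors made in Acuity by a normalization not named in the sources used here. The dye of each time point was taken from the array names and checked against these ratios, which the methods define as 240 over 40 generations (r of 0.97 to 0.98 in the 3 cultures), although their column names give 40 generations first. Their exact zeros, 277, 332 and 24 in Replicates 1, 2 and 3, were treated as missing.

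Median intensities were corrected with normexp (offset 50) and normalized within each array by loess (control spots at weight 0), in R 4.3.3 with limma 3.58.1. Averages were taken over the 2 spots per gene, then over the dye swap, which left 1 value per culture for lmFit and eBayes (prior degrees of freedom 3.71). Tested were 5504 genes above background on at least 4 arrays at 1 time point or the other. Levels were channel values after scaling of average intensity between arrays (Aquantile). Each array pairs the 2 time points of its culture. The methods describe the cultures as independent experiments, and their number, 3, limits the precision. The fit was checked on simulated data. Figures were drawn in Python 3.11.15.

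Named are the 8 pathway genes, the genes of the lists of partners, related genes and permeases, the markers of mating type and the 3 genes nearest to each pathway gene that passed. The neighbors on the chromosome were added after their values were seen. The members and the lists were chosen with earlier results of these data known. Gene names and positions follow the RefSeq annotation of R64, in which 5753 of 6252 genes, the 8 pathway genes among them, had an entry, and 4 genes with emptied lines were left out. Alternatives concerned the background, the pixel summary, both normalizations, the spot and dim-probe filters, the dye swap, the prior, the pairing, each replicate, the authors' ratios, the study's criteria and, chosen after seeing the data, the brighter spot and the trend with length. No sequences of the probes, promoters or proteins were used here.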

Additional observations from a re-analysis of the deposited data

How the results depend on the processing

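Each of the 8 pathway genes was recomputed under 19 other settings. SSY1, PTR3 and STP1 kept their direction and did not pass in any of them. SSY5 stayed lower in all and passed in 16, and STP2 stayed higher in all and passed in 13. Over all 19 settings the adjusted p with limma ran from 0.0082 to 0.097 for SSY5 and from 0.028 to 0.35 for STP2. The number of pathway genes that passed, 2 in the report, was 1 with plain subtraction of the background, with median centring, with no filter on dim probes and on the arrays with the 240-generation RNA in Cy3. It was 0 to 3 when 1 replicate was left out. ASI3 passed only without Replicate 1 (adjusted p = 0.032 with limma, against 0.24 to 0.88 elsewhere). Without Replicate 2 none passed, although limma still gave an unadjusted p under 0.05 to 2 genes. Without the replicate block, that is with the time points of a culture not paired, 0 passed (1 at an unadjusted p under 0.05) and 432 of all genes did, against 1523 in the paired fit. None of the 8 met the study's criteria of an absolute mean of at least 0.9, p of at most 0.05, SD of at most 0.8 and a quotient of SD and squared mean of at most 0.4 (with limma's p, 0 of 8, and 316 of all genes). The number of all genes called was 290 to 2492 when 1 replicate was left out. Median centring gave 649 genes higher and 992 lower, against 769 and 754 with the loess curve. The sign of ASI2 turned with median centring (-0.031) and on the Cy3 arrays (-0.037), and without 1 replicate it was -0.034 to 0.16, while ASI1 was -0.23 to 0.067. The cause of these changes was not tested. A comparison within slides was not run, since the array files used here name no slide.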
